A study of Mus musculus with 3 samples.

Results

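Of 10 mouse genes that act in the piRNA pathway, in germ granules or in the silencing of transposons in germ cells, 2 were higher and 1 was lower in embryonic stem (ES) cells that carried the K3R3 form of the histone variant H2A.Z. The Tudor domain genes Tdrd1 and Tdrd6 rose and the ATPase gene Morc1 fell in the edgeR test, which called 2.02% of all tested genes higher and 0.542% lower. Tdrd6 reached the level needed for testing only through its K3R3 count. DESeq2 called Morc1 as well, and called 0 of the 10 genes higher. The other 7 genes, Tdrd7, Tdrkh, Mael, Piwil2, Ddx4, Dazl and Mov10l1, did not pass the test. The 10 genes were chosen by name for their roles in germ cells, with earlier results of these data known. Their counts beside the shares of all genes are therefore a description only. All 10 are among the 15311 genes in the deposited table and the 13829 that were tested.

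Polyadenylated RNA was sequenced from 3 libraries, 2 from wild-type cells (replicates 1 and 2) and 1 from K3R3 cells. The cells were KH2 ES cells, a doxycycline-responsive mouse line, on a V6.5 background (129SvJae and C57BL/6). The wild-type group expressed a lentiviral H2A.Z-YFP transgene, and the K3R3 group expressed the same fusion with C-terminal lysines of H2A.Z replaced by arginine. Both transgenes stood under a CMV promoter with an rtTA-dependent switch induced with 1 µg/ml doxycycline, and YFP-positive cells were sorted. Both groups also carried a lentiviral hairpin against the endogenous H2A.Z transcript with blasticidin selection, and the hairpin used, among those designed, is not named. The lines are therefore virus-transduced, drug-selected populations, and K3R3 was represented by a single library. Cells were cultured with serum and LIF, and the last passage was without the feeder fibroblasts. Whether the replicates are separate cultures is not in the labels, so the spread between the 2 wild-type libraries may be partly technical. The p-values rest on no other replicate spread, since K3R3 adds none. In edgeR this spread was pooled over genes, so a gene's SE need not follow how closely its own replicates agree.

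PIWI proteins bind piRNAs, small RNAs that guide the silencing of transposons in the germ line. The piRNAs are made from long precursors by a machinery held in germ granules beside mitochondria, where Tudor domain proteins bind methylated arginines on PIWI proteins. Many of these genes are held at low levels outside germ cells by DNA methylation and by PRC1.6, a Polycomb complex whose MGA and MAX subunits bind the E-box CACGTG and which also contains E2F6. ES cells are not germ cells, but some germ cell transcripts are detectable in them.

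The E-box is shown here because germ cell gene promoters are known for it. In RefSeq promoter windows of build GRCm38.p6, from 250 bases before to 50 after a start site, 7 of the 10 genes had an entry, with 11 windows. Tdrd6, Piwil2 and Morc1 had no entry. Each line below gives 30 bases on the gene's strand, 5′ to 3′, with the E-box in capitals. The Tdrd1 stretch is chr19:56826179-56826208 (plus strand), the Ddx4 stretch chr13:112652322-112652351 (minus strand), the Mael stretch chr1:166238950-166238979 (minus strand) and the Mov10l1 stretch chr15:88982744-88982773 (plus strand).
Tdrd1: gcgtgggtggggctgcgcgCACGTGggagt
Ddx4: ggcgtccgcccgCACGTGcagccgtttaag
Mael: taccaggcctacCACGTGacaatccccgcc
Mov10l1: ccttCACGTGctaaccgccaacctctcgtg
The Ddx4 stretch lay inside an exon of an annotated Ddx4 transcript, and the other 3 stretches overlapped no annotated exon. The E-box began 11 bases before the first Tdrd1 start, 29 before that of Ddx4, 223 before that of Mael and 246 before that of Mov10l1. The letters CACGTG, which read the same on both strands, occurred in windows of 4 of the 7 genes (57.1%). Over all promoters, 8.09% of 27025 genes had a match, and among the tested genes with a promoter 11.9% did. By window, the share was 45.5% of 11 for the 7 genes. It was 7.15% of 32851 windows in the whole promoter table and 9.92% of windows of tested genes. The first 2 windows of Tdrd1 overlap and hold the same E-box, which is counted in both. The windows of Tdrkh, Tdrd7 and Dazl held no match, which says only that these letters are not in those 300 bases. The letters TCCCGC or GCGGGA, an E2F core searched on both strands, were in 2 of the 11 windows (18.2%), those of Ddx4 and Mael, against 20% of all windows and 35% of those of tested genes. No match of either kind overlapped one of the other in these windows. The median ratio of observed to expected CpG was 0.795 over the 11 windows and 0.742 over windows of tested genes. Among the 4 genes with an E-box, only Tdrd1 passed the test between K3R3 and the wild type.

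The 3 libraries held 21614693 and 25426228 counts for the wild type and 24718223 for K3R3, over genes with at least 1 count in every library. Levels below are CPM, counts scaled to a common library size with TMM factors. The targeted gene H2afz stood at 219 and 232 CPM in the wild type and at 222 CPM in K3R3, and its count pools the transgene with any endogenous transcript, so it does not check the labels. The edgeR quasi-likelihood test, at a Benjamini-Hochberg adjusted p under 0.05, called 280 of 13829 tested genes higher in K3R3 (2.02%) and 75 lower (0.542%), and with the library totals implied by the deposited RPKM values it called 465 higher and 50 lower. Among calls, the share that was higher was 78.9% in the first scaling and 90.3% in the second, and the second moved the median of all genes by 0.12 on the log2 scale. The sign of a change below is K3R3 minus wild type, the opposite of the sign in the authors' deposited fold changes. Wherever the lone K3R3 library enters a test, its spread is assumed to equal that of the wild type, with 1 residual degree of freedom. In bulk RNA, fewer cells of a type and less RNA per cell cannot be told apart.

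Per kilobase of gene, the levels of the 10 genes spanned a wide range. Ddx4, the germ cell DEAD-box helicase also called VASA, was highest, at 31.1 and 34.5 CPM per kilobase in the wild type and 48.3 in K3R3. Morc1 followed in the wild type, at 27.6 and 21.5 CPM per kilobase. Mael, Piwil2, Dazl, Mov10l1, Tdrkh, Tdrd7 and Tdrd1 came next in the order of the wild-type means, down to 0.66 and 0.963 CPM per kilobase for Tdrd1. Tdrd6 was lowest, at 0.0135 and 0.0399 CPM per kilobase. The wild-type values of neighbours in this order overlapped for Piwil2 and Dazl, for Dazl and Mov10l1, and for Mov10l1 and Tdrkh, and did not overlap for the other 6 neighbouring pairs. In K3R3, Ddx4 was again highest and Tdrd6 lowest, while Morc1 stood at place 5, at 7.97 CPM per kilobase, and Tdrkh at place 3, at 8.64 CPM per kilobase. Ddx4 was above 81.4% and 82.8% of all listed genes per length in the wild-type replicates, and Tdrd6 above 0.385% and 2.63%.

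**Figure D1:**
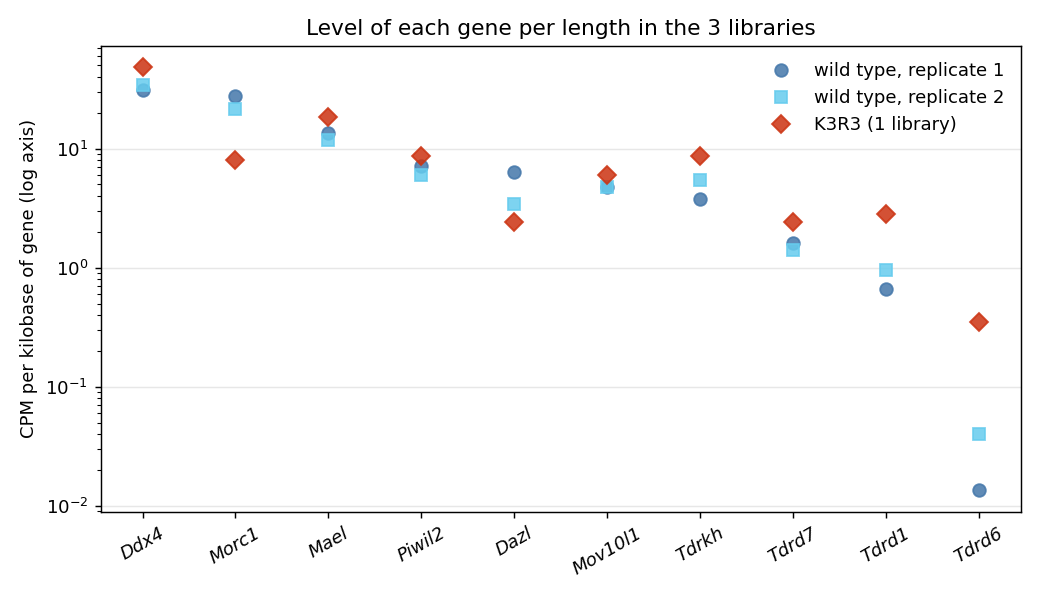
Level of each of the 10 genes in CPM per kilobase of gene (log axis), with 1 point per library and genes in the order of the wild-type mean. Ddx4 is highest in every library, the Morc1 and Dazl points of K3R3 lie below both wild-type points, and those of the other 8 genes lie above both.

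The Tudor domain scaffolds held both genes that rose. Tdrd1, whose protein gathers the PIWI protein MILI and its partners, had 72 and 124 counts in the wild type and 384 in K3R3, or 3.43, 5.00 and 14.8 CPM. The K3R3 value lay above both wild-type values. The K3R3 level was 3.49-fold higher, a log2 change of 1.80 (SE 0.38; 95% interval 1.06 to 2.54) with an adjusted p of 0.00042 in the edgeR quasi-likelihood test after Benjamini-Hochberg adjustment. Set against replicate 1 alone, the log2 difference was 2.09, and against replicate 2 alone it was 1.55, while the wild-type replicates differed by 0.54. DESeq2's Wald test gave Tdrd1 an adjusted p of 0.062, so the call depends on the tool.

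Tdrd6, which builds the chromatoid body of spermatids, was barely detected in the wild type, with 2 and 7 counts, and had 64 counts in K3R3. In CPM these are 0.0951, 0.282 and 2.46, and the K3R3 value was again above both. The ratio of K3R3 to the wild type was 12.5, with an exact conditional 95% interval of 6.2 to 28.6 that covers counting error only. The fitted log2 change was 3.63 (SE 0.85), with an adjusted p of 0.00241 in the edgeR quasi-likelihood test after Benjamini-Hochberg adjustment. Tdrd6 passed the filter on low counts only through its K3R3 count, so its being tested was not independent of its change. Its mean of 0.945 CPM was under the minimum of the 2-fold rule described below. DESeq2 gave it an adjusted p of 0.37.

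Tdrd7, a Tudor protein of the chromatoid body that also acts in the lens, stood at 5.66 and 4.95 CPM in the wild type and 8.49 in K3R3. The groups did not overlap, but its log2 change of 0.68 (SE 0.40) had an adjusted p of 0.604 in the edgeR quasi-likelihood test after Benjamini-Hochberg adjustment, and its 95% interval ran from -0.11 to 1.47. Tdrkh tethers PIWI proteins to mitochondria, where the 3′ ends of piRNAs are trimmed. It had 10.0 and 14.3 CPM in the wild type and 22.9 in K3R3, above both, with a log2 change of 0.91 (SE 0.32; 95% interval 0.27 to 1.54). Its unadjusted p was 0.00506 by edgeR's quasi-likelihood fit, and the adjusted p was 0.116 after Benjamini-Hochberg adjustment. With the implied library totals the adjusted p was 0.039 in edgeR, with a log2 change of 1.03. In the GENCODE vM21 annotation, Oaz3 lies on the opposite strand and shares 2255 of the 6142 exon bases of Tdrkh (36.7%). The deposited length of Tdrkh is 2650 bases, so that share need not hold for the gene model that was counted. Whether the counting used the strand is not stated either. Whether reads of Oaz3 entered the Tdrkh count therefore cannot be told and was not tested. Oaz3 itself had 4, 3 and 24 counts, in the same order of libraries.

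Of the genes that bind piRNAs or act in making them, Piwil2, Mov10l1 and Mael did not pass the test. Piwil2 encodes MILI, the PIWI protein that cuts transposon transcripts. It was read at 35.0 and 29.4 CPM in the wild type and 42.3 in K3R3, above both, with a log2 change of 0.39 (SE 0.27). Mov10l1, the helicase that hands piRNA precursors to the machinery, had 409 and 475 counts in the wild type and 628 in K3R3, or 24.1 CPM there against a wild-type mean of 19.3 CPM, with a log2 change of 0.32 (SE 0.31). The wild-type replicates of Mov10l1 differed by 0.02 on the log2 scale. Mael, a germ granule protein needed for transposon silencing, was at 20.8 and 18.2 CPM, and at 28.3 in K3R3, with a log2 change of 0.54 (SE 0.30). All 3 K3R3 values lay above both wild-type values. Their adjusted p-values were 0.747, 0.899 and 0.555 in the edgeR quasi-likelihood test after Benjamini-Hochberg adjustment, in the order Piwil2, Mov10l1 and Mael.

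Ddx4 had the most counts of the 10 genes, 1863 and 2443 in the wild type and 3582 in K3R3, and so the narrowest counting error. Its CPM were 88.6, 98.4 and 138, with K3R3 above both. The ratio of K3R3 to the wild type was 1.46 (exact conditional 95% interval 1.4 to 1.53, counting error only). The log2 change of 0.56 (SE 0.21) had an unadjusted p of 0.00825 by edgeR's quasi-likelihood fit and an adjusted p of 0.157 after Benjamini-Hochberg adjustment over all genes. With the implied library totals the log2 change was 0.68 and the adjusted p 0.0437 in edgeR, so Ddx4 passes or misses the threshold by the scaling.

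Morc1 and Dazl lay below both wild-type libraries. Morc1, an ATPase that represses transposons in male germ cells, had 1772 and 1628 counts in the wild type and 633 in K3R3, or 84.3, 65.6 and 24.3 CPM. Its K3R3 value lay below both wild-type values. The level was 3.08-fold lower, a log2 change of -1.62 (SE 0.27; 95% interval -2.14 to -1.10) with an adjusted p of 1.45e-06 in the edgeR quasi-likelihood test after Benjamini-Hochberg adjustment. DESeq2 gave Morc1 an adjusted p of 2.84e-05, so Morc1 is the only one of the 10 genes called by both tools. Against replicate 1 alone the log2 difference was -1.79, and against replicate 2 alone it was -1.43.

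Dazl, an RNA-binding protein that controls translation in germ cells, was read at 18.8 and 10.1 CPM in the wild type and 7.14 in K3R3. The K3R3 value lay below both, but nearer to replicate 2 than replicate 2 lay to replicate 1. Its log2 change was -1.01 (SE 0.37), with an unadjusted p of 0.00639 by edgeR's quasi-likelihood fit and an adjusted p of 0.134 after Benjamini-Hochberg adjustment. Against replicate 1 alone the difference was -1.39, against replicate 2 alone it was -0.49, and the wild-type replicates differed by -0.90. The low K3R3 level of Dazl thus rests in good part on wild-type replicate 1.

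**Figure D2:**
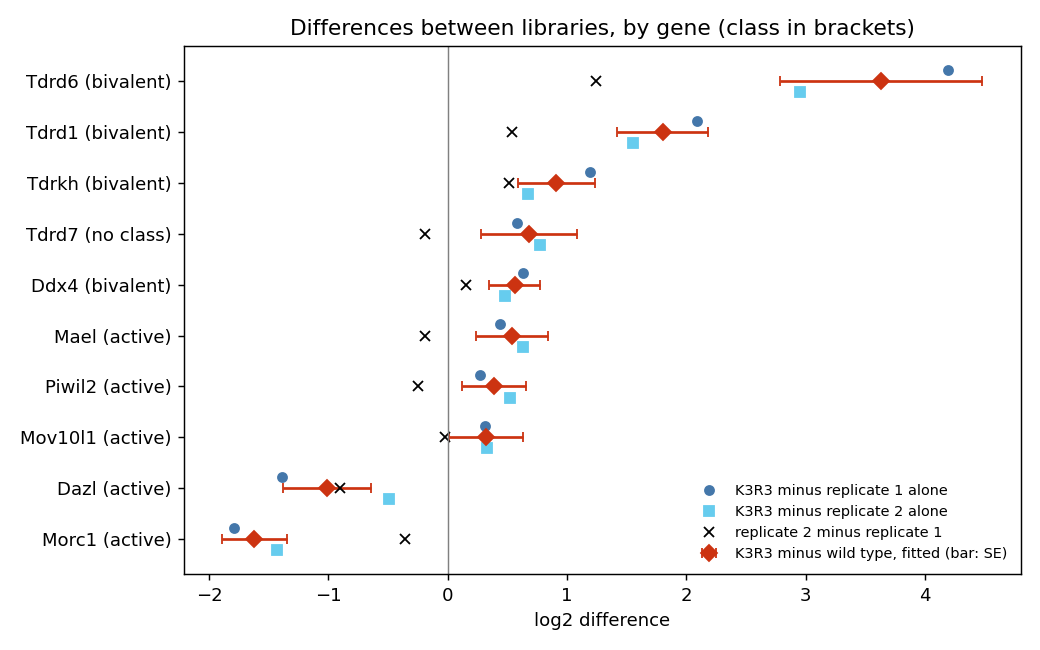
Log2 differences for the 10 genes: the fitted change of K3R3 against wild type with its SE, K3R3 against each wild-type replicate alone, and replicate 2 against replicate 1. The 2 comparisons with single replicates have the same sign for every gene, and for Dazl the difference between the wild-type replicates (-0.90) is larger than that of K3R3 from replicate 2 (-0.49).

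Counted over the 10 genes, 2 were called higher, where the edgeR test called 2.02% of all tested genes, and 1 lower, where it called 0.542%. Of the 2 called higher, Tdrd6 passed the filter on low counts only through its K3R3 count. The K3R3 value was above both wild-type values for 8 genes, against 33.9% of all tested genes, and below both for 2, against 34.2%. At an unadjusted p under 0.05, 4 were higher and 2 lower, against 7.9% and 3.33% of tested genes. By a rule of size with no test (at least 2-fold from each wild-type library after adding 1 CPM, at a mean of at least 1 CPM), only Tdrd1 was higher and only Morc1 lower. That rule took 2.1% and 0.172% of 12761 genes. DESeq2 called none of the 10 genes higher, against 0.239% of genes, and 1 lower, against 0.188%. The median log2 change of the 10 genes was 0.55, and that of all tested genes was -0.01. The summed level of the 10 genes was 286 and 265 CPM in the wild type and 312 CPM in K3R3. In the authors' deposited table, the unadjusted p-values were 9.24e-05 for Tdrd1, 0.0039 for Tdrd6 and 0.000251 for Morc1, and 0.0129 for Tdrkh and 0.0232 for Ddx4.

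The authors' deposited table also gives a class to each gene, taken from a published ES cell map, in which bivalent promoters carry an activating and a repressive histone mark together. Tdrd1, Tdrd6, Tdrkh and Ddx4 were in the bivalent class, and Mael, Piwil2, Dazl, Mov10l1 and Morc1 in the active class. Tdrd7 was in neither. All 4 bivalent genes had a positive log2 change, as did 1363 of all 1671 tested bivalent genes. The changes of the 4 ran from 0.56 to 3.63, with a median of 1.36. The 2 of them called higher were Tdrd1 and Tdrd6, and Tdrd6 passed the filter only through its K3R3 count. Of the 5 active genes, 3 had a positive and 2 a negative change, with a median of 0.32 and a range of -1.62 to 0.54. Over all 1671 tested bivalent genes the median was 0.65, with 10.5% called higher and 0.539% lower. Over the 10984 tested active genes the median was -0.04, with 0.838% called higher and 0.473% lower. Of these active genes, 4715 had a change above 0 and 6269 below.

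Within the bivalent class, the change of Tdrd6 exceeded that of 99.2% of genes, Tdrd1 88.8%, Tdrkh 62.1% and Ddx4 45.2%. Ddx4 and Tdrkh therefore lay near the middle of their class. Within the active class, only 0.137% of genes had a lower change than Morc1 and 0.756% a lower one than Dazl. Mael, Piwil2 and Mov10l1 stood above 90.1%, 86.5% and 84.1% of the active class.

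**Figure D3:**
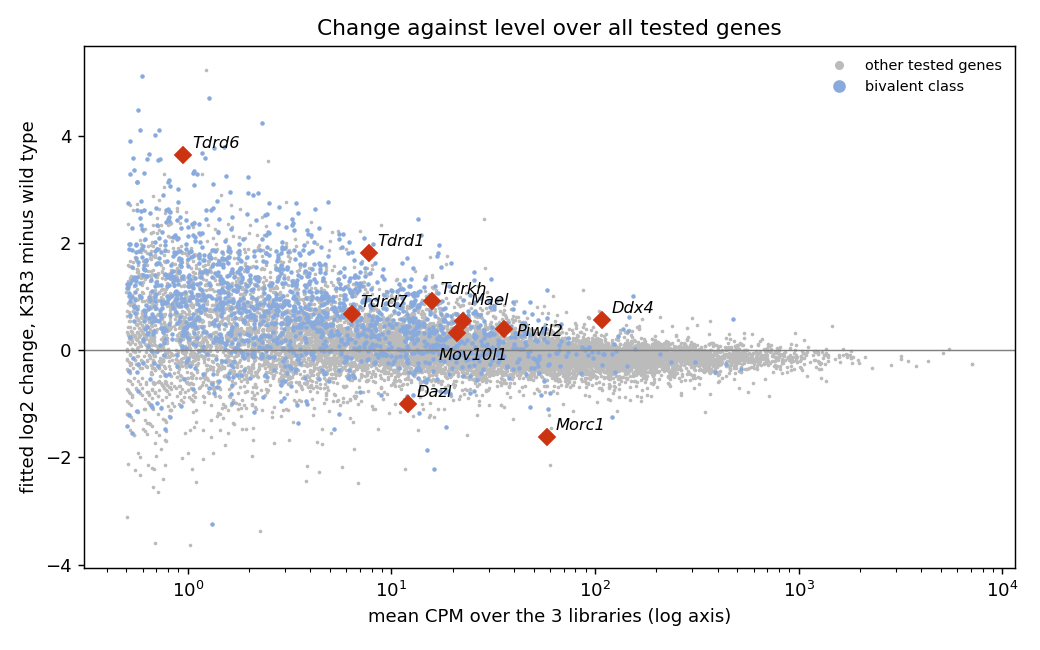
Fitted log2 change, K3R3 minus wild type, against mean CPM over the 3 libraries (log axis) for all tested genes, with bivalent genes in blue and the 10 genes as red diamonds. Tdrd6 (3.63) and Tdrd1 (1.80) stand at the top at low levels, Morc1 (-1.62) at the bottom, and the other 7 lie between -1.01 and 0.91.

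Of 38 further genes of the piRNA pathway, germ granules and related germ cell functions, 34 had a row and 29 were tested. Asz1, Spocd1, Btbd18 and Nanos2 were not analysed here. The list, called other piRNA pathway genes below, is broader than that pathway. 3 were called higher (10.3% of those tested), 2 lower (6.9%) and 24 passed in neither direction, with a median log2 change of 0.12. Over all tested genes, edgeR called 2.02% higher and 0.542% lower. Rbm46, an RNA-binding protein of meiotic entry, had 12 and 50 counts in the wild type and 186 in K3R3 (log2 change 2.44, SE 0.50). Cpeb1, which controls polyadenylation in oocytes, stood at 14.4 and 19.4 CPM and at 42.1 in K3R3 (1.31, SE 0.29). Ddx25, a helicase of spermatids, stood at 6.95 and 9.63 CPM and at 20.7 in K3R3 (1.32, SE 0.34). These 3 genes rose, and all 3 are in the bivalent class, as are Tdrd1 and Tdrd6. That class held 175 of the 280 genes called higher over all tested genes. The adjusted p-values of Rbm46, Cpeb1 and Ddx25 were 0.000233, 0.00104 and 0.00762 in the edgeR quasi-likelihood test after Benjamini-Hochberg adjustment. DESeq2 called only Cpeb1 among them (0.0298). The roles given for Rbm46 and Cpeb1 lie outside the piRNA pathway, so the 10.3% is not a share for that pathway alone.

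Mov10, the paralogue of Mov10l1 that restricts retrotransposons in somatic cells, fell, from 90.2 and 77.8 CPM to 41.6 (log2 change -1.01, SE 0.25, adjusted p 0.00369 by edgeR with Benjamini-Hochberg adjustment). Dnmt3l, the cofactor of DNA methylation at transposons in germ cells, was called lower with -0.94, but stood at 209 CPM in replicate 1 and at 73.8 in replicate 2, beside 73.6 in K3R3. Without replicate 1 its log2 difference was -0.004, and DESeq2 did not call it. Among genes that missed the threshold, Boll, a relative of Dazl, had a log2 change of 2.20 and Piwil4, the PIWI protein that directs DNA methylation in fetal germ cells, one of 1.55, with adjusted p-values of 0.0528 and 0.0636 by edgeR with Benjamini-Hochberg adjustment. With the implied library totals both were called, at 0.0218 and 0.0290 in edgeR. Kif17, a kinesin, had 1.58 with an adjusted p of 0.549 by edgeR. Its counts were 3 and 15 in the wild type and 30 in K3R3. Like Tdrd6, it passed the filter on low counts only through its K3R3 count. The 2 with the highest levels, Wdr77 and Prmt5, whose protein complex methylates the arginines read by Tudor domains, had log2 changes of 0.11 and 0.12. In the promoter table, 11 of 30 genes of this list with an entry held CACGTG (36.7%).

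Of 21 somatic paralogues, 20 were tested and Mov10, already counted above, was the only one called, by edgeR and by DESeq2. That is 5% of those tested, against 0.542% of all tested genes called lower by edgeR. The median log2 change was -0.13. Ddx3x, a DEAD-box relative of Ddx4, stood at 2038 and 2014 CPM and at 1791 in K3R3, with a log2 change of -0.18, and Ddx5 had -0.06, which is 0.06 with the implied library totals. Of the relatives of Morc1, Morc2a had a log2 change of -0.11 and Morc4 one of 0.86 (adjusted p 0.0915 by edgeR with Benjamini-Hochberg adjustment). With the implied library totals, Morc4 was called higher, at an adjusted p of 0.0278 in edgeR.

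Of 42 meiotic and other germline genes, 31 were tested, 5 were called higher (16.1% of those tested), none lower, and the median log2 change was 0.35. Over all tested genes, edgeR called 2.02% higher and 0.542% lower. At an unadjusted p under 0.05 in the quasi-likelihood fit, 11 were higher and 2 lower, against 7.9% and 3.33% of all tested genes. The 11 include Mei1, at 0.333 and 0.322 CPM in the wild type and 1.77 in K3R3. Mei1 passed the filter on low counts only through its K3R3 count, as did Rad21l, so the 11 are not independent of that filter. DESeq2 called 1 of the list higher, Stra8, and 0 lower, against 0.239% and 0.188% of all genes. Stra8, the retinoic acid-induced gene of meiotic entry, rose from 8.23 and 13.9 CPM to 33.6, a 3.03-fold change. Rad21l, a meiotic cohesin subunit, rose from 6 and 6 counts to 69, a log2 change of 3.31, and like Tdrd6 it passed the filter on low counts only through its K3R3 count. Dmrtb1 (2.08), Dmrt1 (0.89) and Ddx25 were the other calls, Dmrt1 being a regulator of testis differentiation. Ddx25 is in both lists and was already counted among the other piRNA pathway genes. The adjusted p-values of Stra8, Rad21l, Dmrtb1 and Dmrt1 were 8.79e-05, 0.00361, 0.037 and 0.023 by edgeR with Benjamini-Hochberg adjustment. The highest levels in the list belonged to Syce2 (0.21) and Stag3 (-0.67), which were not called. In the promoter table, 10 of 36 genes of this list with an entry held CACGTG (27.8%).

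Primordial germ cell specification genes had 18 tested members, none called higher and 2 lower (11.1%), with a median log2 change of -0.22. Over all tested genes, edgeR called 2.02% higher and 0.542% lower. The 2 were Fbxo15 (-0.85) and Dppa5a (-0.59), which are also expressed in ES cells, and DESeq2 called 0 in either direction. The list shares Dppa4 and Utf1 with the ES cell markers below. Prdm1 (-0.13), Prdm14 (-0.33) and Tfap2c (-0.34) were not called. Of the 18 tested, 3 had a change above 0 and 15 below, against 6644 and 7185 of all 13829 tested genes. At an unadjusted p under 0.05 in edgeR, 1 gene of this list was higher and 3 lower, against 7.9% and 3.33% of all tested genes. Dppa5a lost its call with the implied library totals (adjusted p 0.130 in edgeR), and Lin28a, an RNA-binding protein of high level, had a log2 change of 0.02. Of 14 tested PRC1.6 and E2F6 repressor subunits, edgeR and DESeq2 called none, and 1 was lower at an unadjusted p under 0.05 in edgeR. Mga, which binds the E-box, stood at 612 and 564 CPM and at 506 in K3R3 (-0.22), and Wdr5 had -0.39. Among 20 tested enzymes of DNA and H3K9 methylation, Tet2 (-0.83) and Dnmt3l were called lower (10%) and none higher. Dnmt3l was already counted among the other piRNA pathway genes. Unadjusted p-values under 0.05 took 4 lower and 0 higher, against 3.33% and 7.9% of all tested genes. DESeq2 called 1 of the 20 lower. Tet1 (-0.31) and Trim28 (-0.23) had the highest levels. Of 10 tested genes of the 2-cell-like state, none was called by edgeR or DESeq2 or passed an unadjusted p under 0.05, and the highest levels were those of Eif1a (-0.06) and Gm4340 (-0.84).

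**Figure D4:**
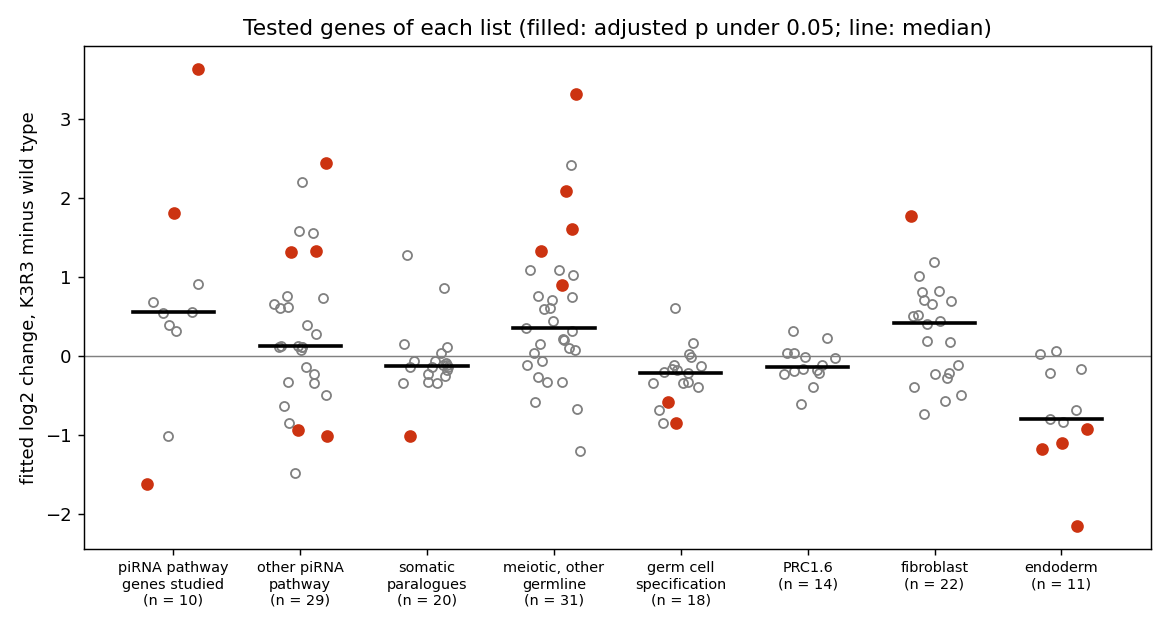
Fitted log2 change, K3R3 minus wild type, of each tested gene in 8 gene lists, with called genes filled and the median of each list as a line. The medians are 0.55 for the 10 genes, 0.12 for other piRNA pathway genes, 0.35 for meiotic genes and -0.80 for endoderm markers.

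Markers of other cells in the culture were set beside these values. Over all tested genes, edgeR called 2.02% higher and 0.542% lower. At an unadjusted p under 0.05 in edgeR, the shares were 7.9% and 3.33%. ES cell markers had a summed level of 4587 and 4241 CPM in the wild type and 3321 in K3R3. Of 10 tested, Klf4 (-0.78) and Sox2 (-0.62) were called lower by edgeR and none higher. At an unadjusted p under 0.05 in edgeR, 3 ES cell markers were lower and 0 higher. Pou5f1, which defines ES cells, stood at 500 and 300 CPM in the wild type and at 311 in K3R3. Tdgf1 had a log2 change of -0.36. Of 11 tested endoderm markers, 4 were called lower, Cubn (-2.15), Gata6 (-1.18), Col4a1 (-1.10) and Lama1 (-0.93), and none higher. At an unadjusted p under 0.05 in edgeR, 6 endoderm markers were lower and 0 higher. DESeq2 called 2 of the endoderm markers lower and 0 of the ES cell and fibroblast markers in either direction. The endoderm markers Afp and Ttr and the fibroblast markers Postn and Lum were not analysed here. The endoderm summed level was 623 and 500 CPM in the wild type and 330 in K3R3, and Lrp2 had 0.06. Of 22 tested fibroblast markers, Thy1 was called higher (1.77) and none lower, with 5 higher and 3 lower at an unadjusted p under 0.05 in edgeR. Their summed level was 2204 and 1934 CPM in the wild type and 1636 in K3R3, led by Fn1 (-0.49) and Sparc (-0.57). The median log2 change of the fibroblast markers was nevertheless 0.42, with 14 of the 22 above 0, as were 6644 of all 13829 tested genes. In K3R3, 12 lay above both wild-type libraries and 4 below both, against 33.9% and 34.2% of all tested genes. Sox2 and Gata6 lost their calls with the implied library totals, at adjusted p-values of 0.136 and 0.0781 in edgeR. The part of these marker differences in the changes of Tdrd1, Tdrd6 and Morc1 was not tested.

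The genes whose pattern over the 3 libraries lay closest to a called gene at a similar level were found by Euclidean distance of centred log2 CPM. For Tdrd1 these were BC068157 (distance 0.0138) and Crabp1, a retinoic acid-binding protein (0.0984), of 2994 candidates. For Tdrd6 they were Vstm2a (0.0182) and Kcna1, a potassium channel (0.144), of 2059. All 4 are in the bivalent class, which held 175 of the 280 genes called higher. Like Tdrd6, Vstm2a and Kcna1 passed the filter on low counts only through their K3R3 counts. For Morc1 they were Nlrp4f, a member of an oocyte-expressed family (0.283), and Dnajc6 (0.329), of 3582. Morc1 thus had a less close neighbour than the others. Nlrp4f went from 56.3 and 42.5 CPM to 20.3, and Dnajc6 from 82.3 and 64.7 to 31.5. With 3 libraries, closeness is a description of few values and says nothing of shared control.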

How the data were processed

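The authors deposited a whole-number read count for each gene, with HTSeq 0.5.4p1, DESeq 1.10.1 and build mm9 named in the submitters' processing notes, and no aligner named. In the RPKM values deposited by the authors, the library total is larger than the column sum, which covers 66.2%, 66.9% and 67.1% of it in wild-type replicates 1 and 2 and K3R3. The authors' deposited fold change, log2 fold change and p-value were used only where named, and the signs of the first 2 run opposite to K3R3 minus wild type in 100% of 2063 genes beyond 2-fold by raw counts. The file gives no coordinates, so promoter positions come from RefSeq GRCm38.p6 and exon overlaps from GENCODE vM21.

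Genes averaging at least 0.5 CPM over the 3 libraries were fitted on their counts in R 4.3.3 with edgeR 4.0.16 (TMM factors, quasi-likelihood test, common dispersion 0.0325, infinite prior degrees of freedom) and, as an alternative, DESeq2 1.42.0, with Benjamini-Hochberg adjustment at 0.05 over all tested genes. SEs were derived from the F statistic, and intervals are 95%. The scripts were tested on simulated data. Tables and the exact intervals used Python 3.11.15, pandas 2.3.3 and scipy 1.17.1. Other alternatives were the likelihood ratio test, DESeq2 size factors, library totals implied by RPKM, no filter, a mean of at least 2 CPM and leaving out each wild-type replicate. The 10 genes, the gene lists and the tests were chosen with earlier results of these data known. Named from each list were all called genes and the 2 with the highest mean CPM, plus the 4 largest changes among other piRNA pathway genes. Morc2a, Morc4, Pou5f1, Oaz3, Mei1, Prdm1, Prdm14, Tfap2c, Dppa4 and Utf1 lie outside that rule and were named after their values were seen.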

Additional observations from a re-analysis of the deposited data

How the results depend on the processing

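All 10 genes kept the sign of their change under each alternative that could give one, including without either wild-type replicate. A mean of at least 2 CPM removed Tdrd6. DESeq2 lowered the calls over all genes to 33 higher and 26 lower, all 59 of them among the 355 of edgeR, and called 0 of the 10 genes higher where edgeR called 2, losing Tdrd1 and Tdrd6 and keeping Morc1. Of the other piRNA pathway genes, DESeq2 called 1 higher and 1 lower. The library totals implied by RPKM gave 465 genes called higher, 4 of the 10 genes (adding Tdrkh and Ddx4), 6 of the other piRNA pathway genes, a median log2 change of 0.67 for the 10 genes, 0.06 for Ddx5 in place of -0.06, and 11 genes at least 2-fold below both wild-type libraries. With a mean of at least 2 CPM, 1 of the 10 genes was called higher. At 1.5-fold, 2 of the 10 genes stood above both wild-type libraries, as did 840 of all genes, and 136 of all genes stood below. With no minimum mean CPM, 2 of the 10 genes stood at least 2-fold above. Leaving out a wild-type replicate gave 1 to 2 of the 10 genes at least 2-fold above and 1 to 2 below, with 419 to 567 of all genes above and 35 to 121 below. No calls could be counted in those fits, since no residual degree of freedom was left. No paired analysis was possible because K3R3 has 1 library, which carries no replicate number. The causes of these shifts were not tested. Depth limits Tdrd6 most, with 2 and 7 counts in the wild type.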
